A study of Arabidopsis thaliana with 36 samples.

Results

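The genes described here are 10 ER chaperones of the secretory pathway of Arabidopsis thaliana, chosen by their gene identifiers from the 33557 genes of the mRNA-seq tables. They are BIP1 (AT5G28540), BIP2 (AT5G42020), BIP3 (AT1G09080), HSP90.7 (AT4G24190), CRT1a (AT1G56340), CRT1b (AT1G09210), CRT3 (AT1G08450), CNX1 (AT5G61790), SDF2 (AT2G25110) and ERDJ3B (AT3G62600). The study asked how hybrids that restrict a bacterial pathogen differ in gene expression from their parents. It sequenced 36 libraries of pooled leaves from 12 groups, 3 libraries per group, taken 1, 2 and 3 days post inoculation (dpi). The groups of each day were Fsc, the hybrid with Sei-0 as the mother and Col-0 as the father, Fcs, the hybrid of the reciprocal cross, and the parental accessions Sei-0 and Col-0. All groups were wild-type leaves of 4-week-old plants grown with 8 h of light per day, and all had been infiltrated with the virulent bacterium Pseudomonas syringae pv. tomato (Pst) DC3000. No uninfected leaves were among the samples analysed, so a difference between groups is not a response to infection measured against a baseline.

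The endoplasmic reticulum (ER) is where proteins bound for the cell surface and the apoplast fold. BiP proteins, which are HSP70 chaperones, hold unfolded chains, J-domain proteins such as ERDJ3B deliver clients to BiP, and SDF2 acts with ERDJ3B. HSP90.7, also called SHEPHERD, is the HSP90 of the ER, and calnexin (CNX1) and the calreticulins (CRT1a, CRT1b, CRT3) are lectins that hold glycoproteins during folding. Leaves that mount salicylic acid dependent immunity need this machinery to secrete antimicrobial proteins such as PR1, and CRT3, SDF2 and ERDJ3B are required for the folding of EFR, the receptor for bacterial elongation factor Tu. When unfolded proteins accumulate, the sensor IRE1 splices the messenger RNA of bZIP60, and bZIP28 leaves the ER membrane. Both factors then act on promoters that carry ER stress response elements.

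The promoters of the 10 genes were searched for such elements in the 250 bases before the gene start that the deposited tables give (TAIR10). Whether the elements relate to the expression values was not tested. An ERSE is CCAAT and CACG separated by 10 free bases, and an ERSE-II is ATTGG and CCACG separated by 1 free base, both searched on both strands. Each match is printed with 5 bases on each side, read 5′ to 3′ along the strand of the motif, and the capitals mark the fixed letters. They show that 8 of the 10 genes carry one of the 2 elements and that BIP3 carries 2 copies.
BIP3 ERSE, distal, chr1:2932001-2932029, plus strand: agtacCCAATcacaagcagaCACGtgaca
BIP3 ERSE, proximal, chr1:2931923-2931951, plus strand: cctctCCAATcacttcttgaCACGtaagc
HSP90.7 ERSE, chr4:12556057-12556085, minus strand: ttgctCCAATacaaaactacCACGtggct
CRT1a ERSE, chr1:21092754-21092782, plus strand: gttaaCCAATtagttaaataCACGccaga
CRT1b ERSE, chr1:2976810-2976838, plus strand: gtaatCCAATaggtaaccgaCACGtcaga
CNX1 ERSE, chr5:24829856-24829884, plus strand: gctaaCCAATcataacaggcCACGtcatt
ERDJ3B ERSE, chr3:23153586-23153614, plus strand: cgtaaCCAATaaatattagcCACGtggat
BIP1 ERSE-II, chr5:10543427-10543447, minus strand: agataATTGGtCCACGtcatc
BIP2 ERSE-II, chr5:16810658-16810678, minus strand: agataATTGGtCCACGtcatc

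The windows of BIP1 and BIP2 are identical over their 21 bases. An ERSE was found before 6 of the 10 genes and before 0.937% of 26686 promoters of the same length, and an ERSE-II before 2 of the 10 genes and 0.0749% of promoters. Either element was found before 8 of the 10 genes and 1.01% of promoters, and CRT3 and SDF2 had neither. This count depends on where a gene is taken to start. The RefSeq models of the same genome (TAIR10.1) start farther upstream for many genes, and with those starts 3 of the 10 genes (BIP3, HSP90.7 and CRT1a) had either element, against 0.753% of promoters. The windows of BIP1, BIP2, CRT1b, CNX1 and ERDJ3B lie within the RefSeq genes, upstream of the start in the deposited tables. The start of the deposited tables was kept as the main choice after both counts had been seen.

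The promoter of BIP3 is shown whole because this gene differed most between the groups. It is the stretch of 250 bases before the RefSeq start (chr1:2931851-2932100, minus strand), upstream of both starts, and the capitals mark the fixed letters of its 2 ERSE copies, which read here as CGTG and ATTGG.
BIP3 promoter: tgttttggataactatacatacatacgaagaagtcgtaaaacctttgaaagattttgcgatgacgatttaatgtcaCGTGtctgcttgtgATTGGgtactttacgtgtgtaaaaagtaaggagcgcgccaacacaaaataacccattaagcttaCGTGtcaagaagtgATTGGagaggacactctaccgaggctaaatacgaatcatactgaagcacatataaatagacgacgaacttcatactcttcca

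Among shorter motifs, TGACGTG, the core of a plant unfolded protein response element, lay before 6 genes (BIP1, BIP2, HSP90.7, CRT1a, CRT1b and CNX1) and 3.32% of promoters. It overlapped the ERSE or ERSE-II of BIP1, BIP2, CRT1b and CNX1. The G-box CACGTG lay before 6 genes and 7.73% of promoters and overlapped the ERSE of BIP3, HSP90.7 and ERDJ3B. TCATCG, known as UPRE-III, lay before BIP2, BIP3 and CRT3 and 6.77% of promoters. GAAGAAGAA, the TL1 element that the factor TBF1 binds, lay before BIP1 and BIP2 and 6.21% of promoters. AAAATATCT, the evening element of clock-controlled genes, lay before none of the 10 genes and 2.3% of promoters. With the RefSeq starts, TGACGTG lay before 2 of the 10 genes (HSP90.7 and CRT1a) and 2.93% of promoters, the G-box before 4 and 6.57%, TCATCG before 2 and 6.37%, GAAGAAGAA before 2 (BIP2 and CNX1) and 4.11%, and the evening element before none and 2.39%. These are matches of letters and not shown to be bound.

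**Figure D1:**
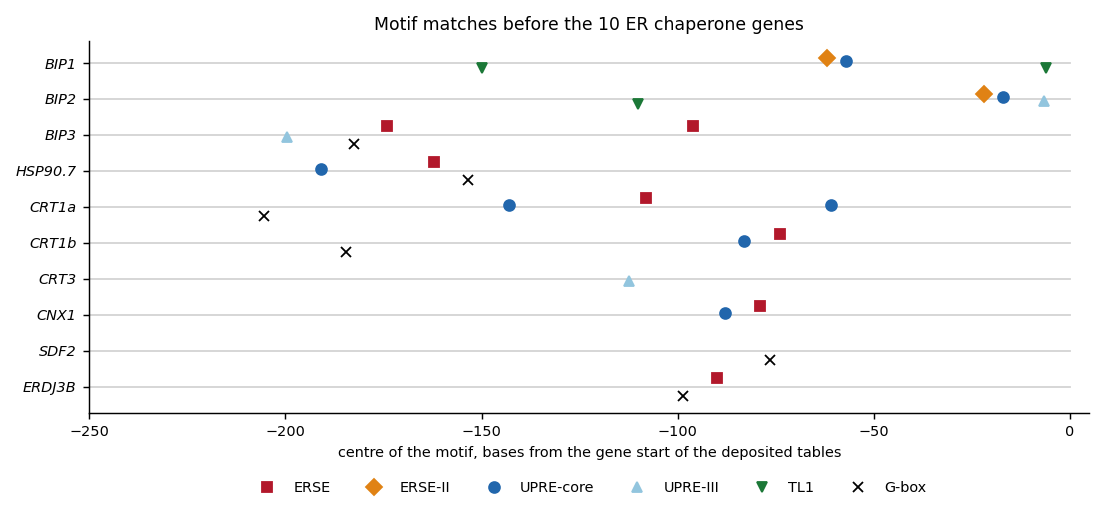
Motif matches in the 250 bases before each of the 10 genes. The x axis gives the centre of each match in bases from the gene start of the deposited tables, each row is a gene and each symbol a motif. ERSE or ERSE-II matches are present in all rows but CRT3 and SDF2, and BIP3 has 2.

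All values below are FPKM, fragments per unit of transcript length and of mapped fragments, and each is a single value that the authors pooled over the 3 libraries of a group. With no value per library, no difference has a replicate check, a standard deviation or a test. A gene was called higher or lower where the ratio of FPKM + 1 was at least 1.5-fold, among genes with an FPKM of at least 1 in any of the 4 groups of a day, and all 10 genes passed this filter on each day. The share of all genes that met the same call is given as the background. The 10 genes and the other lists were chosen with earlier results of these data known, so the comparison with this share is a description. Depth per library was not used here. Between replicate libraries, the correlations given with the study were lowest among those of Sei-0 and of Col-0 on the last day, and the pooled values of that day could not be recomputed without single libraries. The sums of FPKM lay between 935587 and 1192353 over the 12 groups, with Col-0 the highest and Fsc the lowest on each day. The median log2 ratio of all genes to Col-0 lay between -0.02 and 0.01. The reads of all groups were aligned to the Col-0 genome, and whether sequence differences of Sei-0 lowered any FPKM was not tested. In whole leaves, fewer cells of a type and less RNA per cell cannot be told apart.

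At 1 dpi the chaperones were near the parental levels in the hybrids, and at 2 and 3 dpi most were lower in the hybrids than in Col-0. Of the 10 genes, 1 (BIP3) was at least 1.5-fold lower in Fsc than in Col-0 at 1 dpi, against 20.5% of all genes, and 1 (CRT3) was higher, against 17.3%. In Fcs the same 2 genes were called at 1 dpi, BIP3 as lower (background 23.2%) and CRT3 as higher (background 20.8%). At 2 dpi 8 genes were lower in Fsc than in Col-0 (background 13.6%) and 8 in Fcs (background 12.3%), all but CRT1a and SDF2 in both hybrids. At 3 dpi 9 genes were lower in Fsc, all but CRT1a (background 19.8%), and 8 in Fcs, all but CRT1a and SDF2 (background 16.4%). None was called higher than Col-0 at 2 dpi in Fsc (background 13.3%) or Fcs (background 13.3%), or at 3 dpi in Fsc (background 19.4%) or Fcs (background 14.9%). At a threshold of 2-fold, 4 genes were lower in Fsc at 2 dpi (background 6.32%) and 1 in Fcs (background 5.34%), and at 3 dpi 2 were lower in Fsc (background 11.1%) and 4 in Fcs (background 8.09%), with BIP3 among them in each case. Fsc and Fcs are set against the same Col-0 libraries, so the hybrids do not give independent counts.

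At 2 and 3 dpi most of the genes were also lower in the hybrids than in Sei-0, by less than against Col-0. Below both parents by any amount were 5 genes in Fsc (background 32.5%) and 5 in Fcs (background 34.4%) at 1 dpi. At 2 dpi these were 9 in Fsc, all but BIP3 (background 31.5%), and 8 in Fcs, all but BIP2 and BIP3 (background 28.5%). At 3 dpi they were 9 in Fsc (background 38.3%) and 10 in Fcs (background 35%). Few passed 1.5-fold against each parent. At 1 dpi none was that far below both parents in Fsc (background 7.1%) or Fcs (background 9.31%). At 2 dpi these were CRT1b and ERDJ3B in Fsc, 2 genes (background 4.83%), and CRT1b in Fcs, 1 gene (background 3.11%). At 3 dpi CRT1b alone was called in Fsc, 1 gene (background 11.4%), and 0 genes were called in Fcs (background 6.3%). Against the mean of the parents, Fsc had median log2 ratios over the 10 genes of -0.0037, -0.71 and -0.64 at 1, 2 and 3 dpi, and Fcs had -0.15, -0.49 and -0.59 on the same days. All genes had medians between -0.03 and -0.02.

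**Figure D2:**
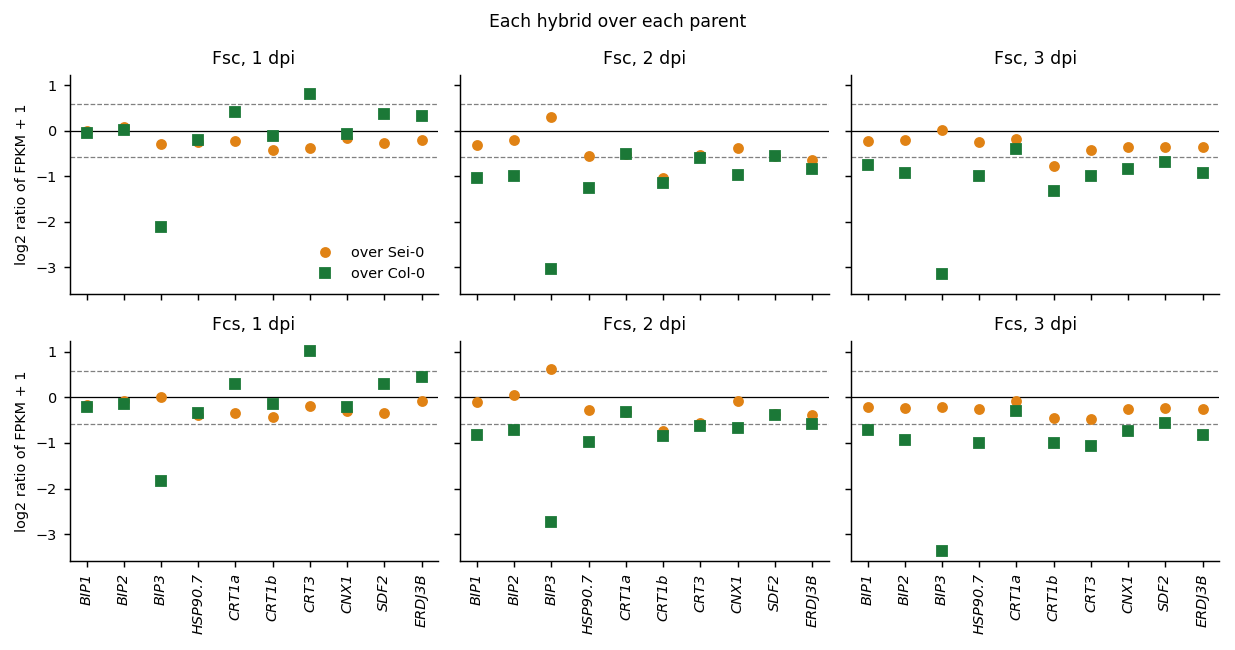
Log2 ratio of FPKM + 1 of each hybrid (rows) to Sei-0 (circles) and Col-0 (squares) for the 10 genes on the x axis, 1 column of panels per day. The dashed lines mark 1.5-fold. At 2 and 3 dpi all ratios to Col-0 lie below 0, with BIP3 the lowest on both days, with -3.04 and -3.14 in Fsc and -2.73 and -3.36 in Fcs at 2 and 3 dpi.

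Col-0 stood apart at the later days. At 1 dpi it was the highest of the 4 groups for 2 of the 10 genes (38% of all genes), at 2 dpi for all 10 (32.7% of all genes) and at 3 dpi for all 10 (33.6% of all genes). Between the parents, 3 genes (CRT1a, CRT3 and SDF2) were at least 1.5-fold higher in Sei-0 than in Col-0 at 1 dpi (background 14.8%) and 1 (BIP3) was lower (background 18.4%). At 2 dpi 5 genes (BIP1, BIP2, BIP3, HSP90.7 and CNX1) were lower in Sei-0 than in Col-0 (background 15.1%), and at 3 dpi 3 genes (BIP2, BIP3 and HSP90.7) were (background 13.7%). None of the 10 genes differed 1.5-fold between Fsc and Fcs at 1 dpi (background 9.96%), 2 dpi (background 9.17%) or 3 dpi (background 8.66%). For 10 genes this is near the share of all genes.

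**Figure D3:**
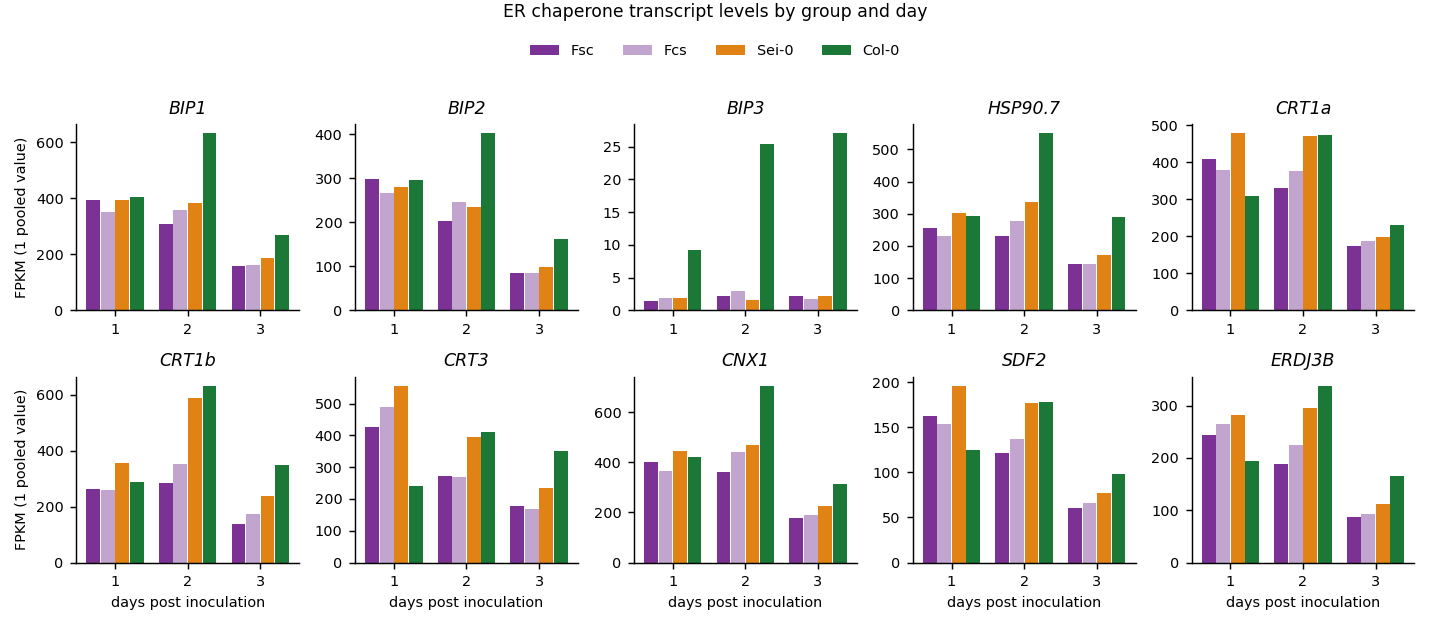
FPKM of the 10 ER chaperone genes at 1, 2 and 3 dpi (x axis), 1 panel per gene with its own y axis from 0. Bars are the pooled values of Fsc, Fcs, Sei-0 and Col-0 from left to right, with no error because 1 value per group was deposited. Col-0 is the highest bar of every panel at 2 and 3 dpi.

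Among the BiP genes, BIP3 separated Col-0 from the other groups most widely. BIP3 (chr1:2929217-2931841, minus strand) encodes the BiP form that is scarce in unstressed leaves and accumulates under ER stress. At 1 dpi BIP3 had 1.35 FPKM in Fsc, 1.87 in Fcs, 1.85 in Sei-0 and 9.17 in Col-0. On the next day it had 2.21 in Fsc, 2.97 in Fcs, 1.59 in Sei-0 and 25.4 in Col-0, and at 3 dpi it had 2.18, 1.72 and 2.14 in Fsc, Fcs and Sei-0 and 27.1 in Col-0. Both hybrids stayed near Sei-0 on every day. On the FPKM + 1 scale, which understates the change of so low a gene, BIP3 was 8.22-fold lower in Fsc, 6.64-fold lower in Fcs and 10.2-fold lower in Sei-0 than in Col-0 at 2 dpi. Fcs was 1.53-fold above Sei-0 at 2 dpi (background 10.2%), the only call of a member above Sei-0 in either hybrid. BIP3 made up 5.91% of the summed BiP FPKM in Col-0 at 3 dpi, and between 0.194% and 0.885% in the other groups over all days.

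BIP1 and BIP2, the constitutive forms, were far more abundant and differed less between the groups. BIP1 (chr5:10540460-10543375, minus strand) had 394 FPKM in Fsc, 349.8 in Fcs, 394 in Sei-0 and 406 in Col-0 at 1 dpi, a narrow range. At 2 dpi BIP1 had 307 in Fsc, 359 in Fcs, 382 in Sei-0 and 632 in Col-0, 2.06-fold lower in Fsc and 1.76-fold lower in Fcs than in Col-0. At 3 dpi BIP1 had 159.5 in Fsc, 163 in Fcs, 188 in Sei-0 and 269 in Col-0. The hybrids and Sei-0 lay together below Col-0 at both later days. BIP2 (chr5:16807483-16810646, minus strand), whose loss impairs secretion of PR1, had 299 in Fsc, 267 in Fcs, 281 in Sei-0 and 295 in Col-0 at 1 dpi. At 2 dpi BIP2 had 203 in Fsc, 245 in Fcs, 235 in Sei-0 and 402 in Col-0, and at 3 dpi 84.8, 84.1 and 98.4 in Fsc, Fcs and Sei-0 and 162 in Col-0. Fcs was not below Sei-0 for BIP2 at 2 dpi. The coding sequences of BIP1 and BIP2 are 96.8% identical, with an identical run of 323 bases, so their reads can be shared and the split between them is uncertain. Their sum was 509.9 in Fsc, 604 in Fcs, 617 in Sei-0 and 1034 in Col-0 at 2 dpi. BIP1 and BIP3 are 73.3% identical, with no identical run over 20 bases.

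HSP90.7 (chr4:12551717-12555909, minus strand) had a pattern like that of BIP1. It had 257 FPKM in Fsc, 230.0 in Fcs, 303 in Sei-0 and 294 in Col-0 at 1 dpi. At 2 dpi HSP90.7 had 229.8 in Fsc, 277 in Fcs, 336 in Sei-0 and 549.9 in Col-0, which is 2.39-fold lower in Fsc and 1.98-fold lower in Fcs than in Col-0. At 3 dpi it had 144 in Fsc, 143.5 in Fcs, 171 in Sei-0 and 288.5 in Col-0. The hybrids were lowest on all 3 days. CNX1 (chr5:24827102-24829791, minus strand), the membrane-bound lectin, had 399.9 FPKM in Fsc, 364 in Fcs, 447 in Sei-0 and 419.6 in Col-0 at 1 dpi. At 2 dpi it had 362 in Fsc, 442 in Fcs, 470.5 in Sei-0 and 707 in Col-0, and at 3 dpi 176.5, 189 and 224.5 in Fsc, Fcs and Sei-0 and 314 in Col-0. For CNX1 the lower call against Col-0 held in both hybrids at 2 dpi, at 1.95-fold in Fsc and 1.60-fold in Fcs, and at 3 dpi.

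At 2 dpi CRT1b was the gene farthest below its nearer parent in both hybrids. Calreticulins of this class are soluble lectins that also buffer calcium in the ER. CRT1b (chr1:2972842-2976750, minus strand) had 264 FPKM in Fsc, 261 in Fcs, 354 in Sei-0 and 288 in Col-0 at 1 dpi. At 2 dpi it had 284 in Fsc, 353 in Fcs, 587 in Sei-0 and 632 in Col-0, so that both parents were high and both hybrids low. That is 2.06-fold lower in Fsc and 1.66-fold lower in Fcs than in Sei-0, and 2.22-fold and 1.79-fold lower in the same hybrids than in Col-0. At 3 dpi CRT1b had 139 in Fsc, 173 in Fcs, 238 in Sei-0 and 349 in Col-0. Its copy CRT1a (chr1:21089844-21092660, minus strand), with 84.4% coding identity, differed less between the groups at 2 and 3 dpi. CRT1a had 409 in Fsc, 378 in Fcs, 478 in Sei-0 and 308 in Col-0 at 1 dpi, 331 in Fsc, 378 in Fcs, 469.8 in Sei-0 and 474 in Col-0 at 2 dpi, and 174 in Fsc, 186 in Fcs, 197 in Sei-0 and 230.4 in Col-0 at 3 dpi. CRT1a was not called against Col-0 in either hybrid on any day. The longest identical run of CRT1a and CRT1b is 52 bases, so some of their reads can also be shared.

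CRT3, SDF2 and ERDJ3B, which serve EFR, were highest in Sei-0 and lowest in Col-0 at 1 dpi, and this order changed by 2 dpi. It was not particular to them, since CRT1a had the same order at 1 dpi and also changed by 2 dpi. CRT3 (chr1:2667798-2671892, minus strand), a plant-specific calreticulin, had 425.5 FPKM in Fsc, 489 in Fcs, 557 in Sei-0 and 241 in Col-0 at 1 dpi, that is 1.76-fold higher in Fsc, 2.02-fold higher in Fcs and 2.30-fold higher in Sei-0 than in Col-0. At 2 dpi it had 271 in Fsc, 268 in Fcs, 394 in Sei-0 and 412 in Col-0, and at 3 dpi 176.5, 168 and 235.5 in Fsc, Fcs and Sei-0 and 351 in Col-0. Its ratio to Col-0 turned, to 1.52-fold lower in Fsc and 1.53-fold lower in Fcs at 2 dpi and 1.98-fold and 2.08-fold lower in the same hybrids at 3 dpi. ERDJ3B (chr3:23150790-23153510, minus strand) had 244.5 in Fsc, 265 in Fcs, 282 in Sei-0 and 194 in Col-0 at 1 dpi, 189 in Fsc, 225 in Fcs, 295 in Sei-0 and 338.5 in Col-0 at 2 dpi, and 86.8 in Fsc, 93.2 in Fcs, 112 in Sei-0 and 165 in Col-0 at 3 dpi. In Fsc at 2 dpi ERDJ3B was 1.56-fold below Sei-0 and 1.79-fold below Col-0. SDF2 (chr2:10684135-10686085, plus strand) had 162 in Fsc, 153.5 in Fcs, 196 in Sei-0 and 124 in Col-0 at 1 dpi. At 2 dpi SDF2 had 121 in Fsc, 137 in Fcs, 177 in Sei-0 and 178 in Col-0, and at 3 dpi 60.5, 66.0 and 77.6 in Fsc, Fcs and Sei-0 and 98.3 in Col-0. The parents were nearly equal for SDF2 and CRT1a at 2 dpi, with both hybrids under them.

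Over the 12 groups, with log2(FPKM + 1) centred within each day, Pearson correlations among the genes are given as a description. The groups share libraries and normalization, and no clustering was run. BIP1, BIP2, BIP3, HSP90.7 and CNX1 correlated with each other at between 0.83 and 0.99, and CRT1a, CRT3, SDF2 and ERDJ3B at between 0.90 and 0.97. BIP3 and CRT1a had the lowest correlation, at 0.23. CRT1b correlated at 0.91 with both CNX1 and ERDJ3B.

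Set side by side over the days, the level of the chaperones in Col-0 was higher at 2 dpi than at 1 dpi for 10 of 10 genes, with a median log2 ratio of 0.76 and the largest in BIP3 at 1.37 and CRT1b at 1.13. The same median was -0.33 in Fsc, 0.02 in Fcs and -0.04 in Sei-0. At 3 dpi the level was lower than at 2 dpi in every group, the medians being -0.97 in Fsc, -1.03 in Fcs, -1.12 in Sei-0 and -0.98 in Col-0. BIP3 was the exception in Col-0 and Sei-0, where it was higher at 3 dpi than at 2 dpi by 0.09 and 0.28 on the log2 scale in Col-0 and Sei-0. The tables of the 3 days were normalized separately, so these ratios carry no call. Relative to the geometric mean of 7 control genes, the median of 2 over 1 dpi in Col-0 was 0.60 and the other medians kept their sign. The control genes were not all constant between groups. On each day 1 of the 7 was called lower in Fsc than in Col-0, against 20.5%, 13.6% and 19.8% of all genes at 1, 2 and 3 dpi.

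The rest of the folding machinery was read from 5 lists with 41 genes, of which 40 passed the filter. At 2 dpi 17 of the 40 were at least 1.5-fold lower in Fsc than in Col-0 and 8 in Fcs, against the same 13.6% and 12.3% of all genes in these hybrids. None was higher, against 13.3% of all genes in each hybrid. At 3 dpi 14 were lower in Fsc and 10 in Fcs, against 19.8% and 16.4% of all genes, and 1 was higher in Fsc, against 19.4%. At 1 dpi 13 of the 40 were higher in Fsc and 11 in Fcs, against 17.3% and 20.8% of all genes, while 1 was lower in Fsc and none in Fcs, against 20.5% and 23.2%. At 1 dpi the 40 genes had a median log2 ratio to Col-0 of 0.38 in Fsc and 0.36 in Fcs, and the 10 chaperones had -0.01 in Fsc and -0.14 in Fcs. By list, this median was 0.16 in Fsc and 0.04 in Fcs for the 6 other ER chaperones and co-chaperones. For ER-associated degradation it was -0.06 in Fsc and -0.002 in Fcs. Higher medians were those of the isomerases and oxidases (0.70 and 0.55), N-glycosylation (0.80 and 0.52) and the translocon (0.32 and 0.49).

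The counts of single lists that follow are to be read against these shares of all genes. Of 6 other ER chaperones and co-chaperones, 5 were lower in Fsc and 3 in Fcs than in Col-0 at 2 dpi. ERDJ3A, a J-domain protein of pollen tube growth under heat, had 5.12 FPKM in Fsc, 6.64 in Fcs, 7.19 in Sei-0 and 15.0 in Col-0 at 2 dpi. Of 9 protein disulphide isomerases and ER oxidases, which form and shuffle disulphide bonds, 6 were lower in Fsc at 2 dpi (13.6% of all genes) and 2 in Fcs, near the background of 12.3%, while at 1 dpi 5 were higher in Fsc (17.3%) and 4 in Fcs (20.8%). The lists of ER-associated degradation, which exports misfolded proteins to the proteasome, and of the Sec61 translocon, the channel by which chains enter the ER, were lower with smaller medians. At 2 dpi these were -0.48 in Fsc and -0.30 in Fcs for degradation and -0.44 in Fsc and -0.34 in Fcs for the translocon, as log2 over Col-0. UBC32, a ubiquitin-conjugating enzyme of the ER, had 25.2 in Fsc, 31.4 in Fcs, 48.6 in Sei-0 and 64.7 in Col-0 at 3 dpi, at least 1.5-fold below both parents in both hybrids. The 9 genes of N-glycosylation and ER glycan trimming stood apart from the rest at 2 dpi. None of them was called against Col-0 at 2 dpi in either hybrid, where Fsc had a median of -0.01 and Fcs of -0.06. At 1 dpi 7 were higher in Fsc (17.3% of all genes) and 4 in Fcs (20.8%), much as in the isomerases and oxidases. ALG9, a mannosyltransferase of the glycan precursor, had 12.4 in Fsc, 14.1 in Fcs, 5.01 in Sei-0 and 6.62 in Col-0 at 1 dpi, so that each hybrid was at least 1.5-fold above each parent.

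**Figure D4:**
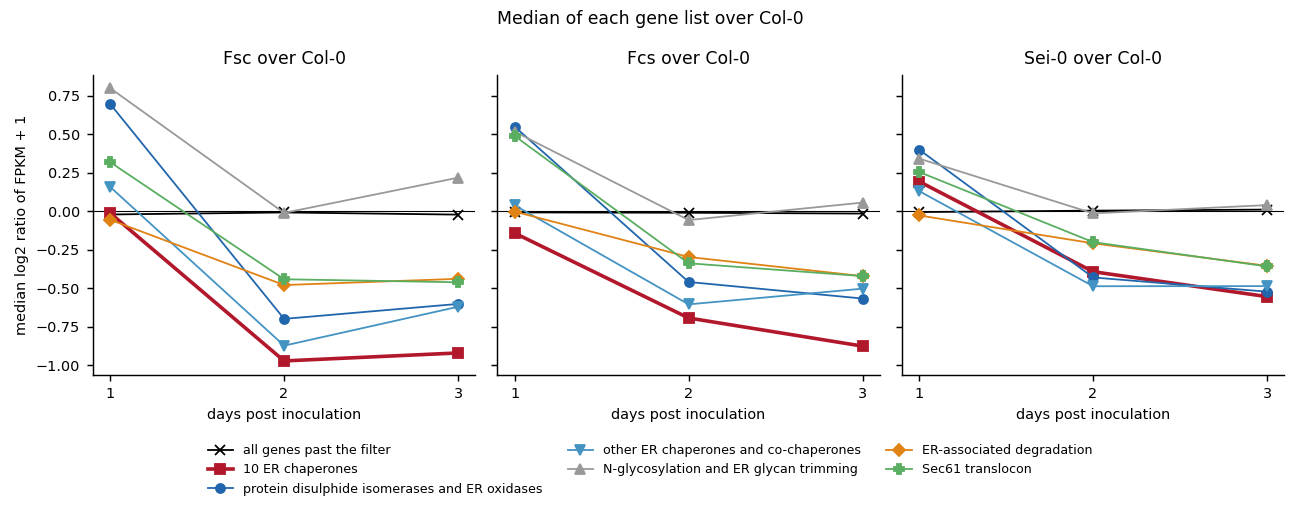
Median log2 ratio of FPKM + 1 over Col-0 (y axis) at 1, 2 and 3 dpi (x axis) for the 10 ER chaperones, 5 other ER lists and all genes past the filter, in Fsc, Fcs and Sei-0. The 10 chaperones have the lowest medians of the lists in Fsc and Fcs at 2 dpi, at -0.97 and -0.69, and the N-glycosylation list stays near 0 at that day.

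The regulators did not share the pattern of the chaperones as one list. TBF1, the heat shock factor-like protein that activates secretory genes during immunity, had 351 FPKM in Fsc, 502 in Fcs, 320.4 in Sei-0 and 97.0 in Col-0 at 1 dpi and 361 in Fsc, 540.2 in Fcs, 516 in Sei-0 and 225 in Col-0 at 2 dpi. It was lowest in Col-0 on both days, while all 10 chaperones were highest in Col-0 at 2 dpi and 2 of them at 1 dpi. At 3 dpi TBF1 had 136 in Fsc, 221 in Fcs, 326 in Sei-0 and 206 in Col-0. bZIP60 had 58.3 in Fsc, 81.1 in Fcs, 43.7 in Sei-0 and 69.8 in Col-0 at 1 dpi, 61.5 in Fsc, 80.9 in Fcs, 52.8 in Sei-0 and 93.6 in Col-0 at 2 dpi, and 42.3 in Fsc, 43.8 in Fcs, 42.1 in Sei-0 and 82.4 in Col-0 at 3 dpi. At 2 and 3 dpi bZIP60 was highest in Col-0, as the chaperones were. FPKM values of a whole gene do not tell its spliced from its unspliced form. IRE1A, a sensor of unfolded proteins, had 28.2 in Fsc, 33.9 in Fcs, 31.98 in Sei-0 and 13.8 in Col-0 at 1 dpi, and IRE1B lay between 5.16 and 9.39 over all groups. NAC062, a membrane-bound factor of the stress response, had 34.5 in Fsc, 37.1 in Fcs, 25.5 in Sei-0 and 18.3 in Col-0 at 1 dpi. BI-1, an inhibitor of cell death in the ER membrane, had 296 in Fsc, 327 in Fcs, 179 in Sei-0 and 156 in Col-0 at 1 dpi, so that each hybrid exceeded each parent, and 132 in Fsc, 142 in Fcs, 158 in Sei-0 and 212 in Col-0 at 3 dpi. NPR1, the salicylic acid receptor, lay between 27.5 and 48.0, bZIP28 between 16.6 and 28.9, bZIP17 between 25.2 and 41.2 and BAG7 between 33.9 and 66.4. NAC103 did not exceed 0.196 in any group, and no ratio was drawn from it.

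**Figure D5:**
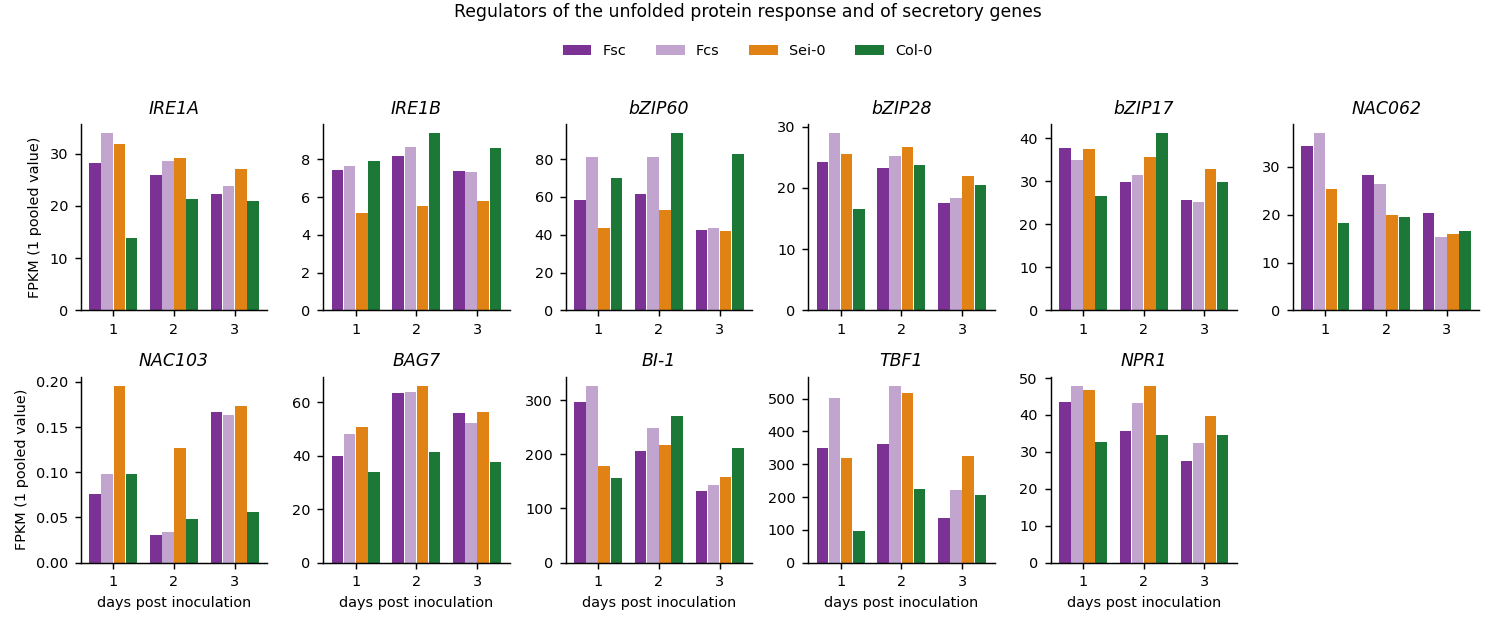
FPKM of 11 regulators of the unfolded protein response and of secretory genes at 1, 2 and 3 dpi (x axis), 1 panel per gene with its own y axis from 0. Bars are the pooled values of Fsc, Fcs, Sei-0 and Col-0 from left to right. TBF1 is lowest in Col-0 at 1 and 2 dpi, and bZIP60 is highest in Col-0 at 2 and 3 dpi.

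The genes most like the 10 chaperones were sought among 15629 genes with an FPKM of at least 5 in some group, by Pearson correlation over the 12 groups with the mean of the centred chaperones. At r of at least 0.9 were 151 of them, 0.966%. The first 3 belong to the ER lists, DER1 (AT4G29330), a subunit of the degradation channel, at 0.978, ERDJ3A at 0.975 and SEC61 BETA (AT2G45070) of the translocon at 0.969. They were followed by AT1G65870, AT5G47420, AT1G60670 and AT2G44940 at between 0.965 and 0.968, CCR2 (AT1G80820), a cinnamoyl-CoA reductase of the phenylpropanoid pathway, at 0.965, PGSIP2 at 0.964 and DMR6 (AT5G24530), an enzyme of salicylic acid breakdown, at 0.961. DMR6 had 200 FPKM in Fsc, 226 in Fcs, 181 in Sei-0 and 183 in Col-0 at 1 dpi and 72.8 in Fsc, 90.8 in Fcs, 106 in Sei-0 and 306 in Col-0 at 2 dpi. The median r was 0.91 in the list of other ER chaperones, 0.71 in the isomerases and oxidases, -0.16 in N-glycosylation and 0.04 in all genes.

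Other gene groups moved with the same libraries. The clock gene CCA1, expressed in the morning, had 1.23 FPKM in Fsc, 3.72 in Fcs, 17.7 in Sei-0 and 44.6 in Col-0 at 2 dpi, and LUX, expressed in the evening, had 85.7 in Fsc, 39.0 in Fcs, 11.1 in Sei-0 and 2.43 in Col-0. Of the 5 clock genes, the morning genes CCA1 and LHY were lower and TOC1, GI and LUX higher in both hybrids than in Col-0 on every day. The 5 leaf markers were all lower in both hybrids than in Col-0 at 1 dpi, with a median log2 ratio of -1.75 in Fsc and -1.96 in Fcs, and those called lower in Fsc were 3 at 2 dpi and 2 at 3 dpi, against 2 and 1 in Fcs. At 3 dpi 1 of the 5 was also higher in Fsc than in Col-0, and the median log2 ratio was -0.08 in Fsc and -0.11 in Fcs. These counts stand beside the shares of all genes given above for the same comparisons. Over the days their summed FPKM ranged between 10876 and 20624 in Fsc, 8033 and 19746 in Fcs, 11712 and 16684 in Sei-0 and 12866 and 30771 in Col-0. None was at 0 in any group, and LHCB2.1 in Fsc at 2 dpi was the lowest at 30.8. Of 6 markers of other organs, the seed and flower genes CRA1, OLEO1, AG, AP1 and AP3 did not exceed 0.431 FPKM in any group. Over the days the summed FPKM of the 6 ranged between 1.18 and 6.59 in Fsc, 1.51 and 4.82 in Fcs, 4.55 and 8.49 in Sei-0 and 6.6 and 24.3 in Col-0. PYK10, a β-glucosidase of ER bodies known from seedlings and roots, had 0.841 in Fsc, 1.29 in Fcs, 4.21 in Sei-0 and 22.6 in Col-0 at 2 dpi and correlated with the chaperones at 0.948. The part of the clock, of leaf makeup or of ER bodies in the chaperone differences was not tested.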

How the data were processed

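The authors mapped reads of 36 mRNA-seq libraries with TopHat, with Bowtie named in the labels, on TAIR10, assembled and merged transcripts with Cufflinks and Cuffmerge, and compared groups with Cuffdiff under a Poisson fragment distribution. Tool versions are not given in the sources used here. The deposited values are FPKM, 1 per gene and group over 3 libraries, in 1 table per day, each with 6 comparisons. A group's FPKM was identical in all its comparisons. The authors' fold changes, test statistics, p-values and q-values in the same tables were not used.

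The labels give the groups. The 10 genes and all lists were chosen with earlier results of these data known. Ratios were taken of FPKM + 1 and called at 1.5-fold, among genes with an FPKM of at least 1 in a group of that day. Whether the calls hold between single libraries was not tested, because 1 pooled value per group was deposited. Genes named outside the 10 are all regulators, genes of the ER lists at least 1.5-fold beyond both parents in both hybrids, and the 10 most correlated genes. EFR, BRI1, UBQ10 and the clock, leaf and organ genes named singly were picked after their values were seen. Motifs were searched in TAIR10.1, whose genes overlap those of the tables for 26687 of 26687 shared protein-coding genes. Sequences come from RefSeq (TAIR10.1) and gene spans from the deposited tables (TAIR10), and none of the 10 genes overlaps another annotated gene. Alternatives were other folds, pseudocounts, filters, scalings, the higher parent as reference, BIP1 and BIP2 summed, and leaving out BIP3. RefSeq gene starts, and the same alternatives against 1 parent, were added after seeing the data, as was the count of genes highest in Col-0. Python 3.11.15, pandas 2.3.3, NumPy 2.4.6, Biopython 1.88 and Matplotlib 3.10.9 were used.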

Additional observations from a re-analysis of the deposited data

Results flagged for a closer look

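CRT3 stood on opposite sides of Col-0 on different days in both hybrids. Its log2 ratio of FPKM + 1 in Fsc over Col-0 was 0.82 at 1 dpi, -0.60 at 2 dpi and -0.99 at 3 dpi. In Fcs over Col-0 it was 1.02 at 1 dpi, -0.62 at 2 dpi and -1.06 at 3 dpi. Each of these passes 1.5-fold. In Sei-0 over Col-0 the CRT3 ratio was 1.20, -0.06 and -0.57 at 1, 2 and 3 dpi, past 1.5-fold only at 1 dpi. The difference between the days was not tested, because 1 pooled value per group and day was deposited, and the hybrids are set against the same Col-0 libraries. No other of the 10 genes was called on both sides of a parent. CRT1a, SDF2 and ERDJ3B also changed sign against Col-0 after 1 dpi in both hybrids, without a call at 1 dpi. From 1 value per group, single libraries could not be compared.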

How the results depend on the processing

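No paired analysis was possible because 1 pooled FPKM value per group was deposited, and for the same reason no replicate could be left out. Of 196 values recomputed for the 10 genes under an alternative, 163 stayed the same within 1.5 times the count or 0.1 on the log2 scale, 33 moved and 0 reversed beyond these limits. The median of Fsc to the mid-parent value at 1 dpi, -0.0037, changed sign within them, to 0.0085 with scaling to the same median, 0.0103 with BIP1 and BIP2 summed and 0.0157 without BIP3. Most that moved came from the fold. At 2-fold, genes called either way against Col-0 in Fsc numbered 1, 4 and 2 at 1, 2 and 3 dpi, in place of 2, 8 and 9. The shares of all genes at 2-fold were 18.7%, 12.4% and 20.4%. In Fcs they numbered 1 and 4 at 2 and 3 dpi (11.6% and 14.5% of all genes), in place of 8 and 8. The counts in Fsc at 1 and 3 dpi and in Fcs at 2 dpi were near these shares. Against Sei-0 at 2-fold, genes called in Fsc numbered 1 and 0 at 2 and 3 dpi (9.58% and 16.1% of all genes), in place of 2 and 1. In Fcs at 2 dpi 0 were called (6.89%), in place of 2. In Sei-0 over Col-0 they numbered 2, 1 and 1 at 1, 2 and 3 dpi, in place of 4, 5 and 3, and 0 differed from both parents in both hybrids at 2 dpi, in place of 1. At a lower threshold, a log2 ratio of 0.32, genes called against Col-0 numbered 5 in Fsc and 4 in Fcs at 1 dpi, in place of 2 in each, and genes called against Sei-0 numbered 2, 7 and 5 in Fsc at 1, 2 and 3 dpi, in place of 0, 2 and 1, and 4, 5 and 2 in Fcs, in place of 0, 2 and 0. These counts are read against large shares of all genes at that threshold, which were 59.8% in Fsc and 65.8% in Fcs against Col-0 at 1 dpi, and against Sei-0 45.1%, 46.5% and 56.6% in Fsc and 45.7%, 36.6% and 42.5% in Fcs at 1, 2 and 3 dpi. In Sei-0 over Col-0 at 3 dpi 9 were called (44.7% of all genes), in place of 3, and against both parents in both hybrids 4 at 2 dpi (10.5%), in place of 1, and 2 at 3 dpi (23.4%), in place of 0. A pseudocount of 5 left 1 gene called in Fcs over Sei-0 at 2 dpi, in place of 2. Against the higher parent in place of the mid-parent value, Fsc had median log2 ratios of -0.23, -0.97 and -0.92 at 1, 2 and 3 dpi and Fcs had -0.32, -0.69 and -0.88, lower by construction. Relative to control genes, the Col-0 medians were 0.60 for 2 over 1 dpi and -0.84 for 3 over 2 dpi. With RefSeq starts, 3 genes had ERSE or ERSE-II, in place of 8. Scaling to the same median, a pseudocount of 0.1, BIP1 and BIP2 summed and leaving out BIP3 moved none of the results of the 10 genes beyond those limits. The 2 alternative filters on low values could not move a count, because all 10 genes passed each of them on every day. Each of these filters accounts for 21 of the values that stayed the same.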

Other observations

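EFR and BRI1 are cell-surface receptors whose folding is watched by ER quality control. Neither was called against Col-0 in either hybrid on any day. Between 12.3% and 23.2% of all genes were called in each direction in these comparisons. Most genes were thus not called either, and 2 uncalled genes say little about receptors. EFR had 7.29 FPKM in Fsc, 7.21 in Fcs, 6.93 in Sei-0 and 6.12 in Col-0 at 1 dpi and 10.2 in Fsc, 13.1 in Fcs, 14.0 in Sei-0 and 10.51 in Col-0 at 3 dpi. BRI1, the brassinosteroid receptor, had 30.3 in Fsc, 27.7 in Fcs, 39.7 in Sei-0 and 25.7 in Col-0 at 2 dpi, 1.53-fold higher in Sei-0 than in Col-0 (background 12%). Among the 7 control genes, UBQ10 had 467.6 in Sei-0 and 1331 in Col-0 at 1 dpi.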
